A study of Mus musculus with 12 samples.

Results

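The promoters of the ribosomal protein genes were examined as a housekeeping set in ATAC-seq peak lists of mouse microglia. The set comprised the protein-coding genes of the mouse genome (mm10, GENCODE basic annotation) whose symbol is Rpl or Rps followed by a number, without the Rps6k kinases. This rule gave 88 of 21827 protein-coding genes. By name, 73 of them encode core proteins of the cytosolic ribosome, 30 of the small subunit (Rps) and 43 of the large subunit (Rpl). Another 14 are paralogs or copies of such genes, 6 of which carry "-ps" in their symbol, and 1 (Rps19bp1) encodes a binding partner of a ribosomal protein. A promoter was taken as called in a library if that library's list held a peak within 1.0 kb of any annotated transcription start site (TSS) of the gene, and the peak of largest area stood for the promoter.

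ATAC-seq reads open chromatin as the places where the Tn5 transposase can insert sequencing adapters. The 12 libraries came from microglia of wild-type female C57BL/6J mice that were 3, 14 or 24 months old and had been injected intraperitoneally with lipopolysaccharide (LPS) or with phosphate-buffered saline (PBS) as its control. The 6 groups, PBS and LPS at each age, held 2 libraries each, and every library pooled the cells of 2 to 3 mice, so the spread within a group is that between pools. The study's methods describe sorting of CD11b+ CD45low cells, whereas the labels' protocol also describes nuclei ground from frozen tissue. The sources give different times between injection and collection, and none is given here.

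Ribosomal proteins are the structural partners of ribosomal RNA, and each ribosome needs them in equal numbers, so their genes are transcribed strongly in nearly every cell type. Their promoters are generally described as short and rich in G and C, mostly without a TATA box, and as starting transcription at a C inside a tract of pyrimidines. This tract becomes the 5′ end of the mRNA and couples its translation to growth signalling. Microglia are the resident macrophages of the brain and remodel parts of their chromatin when they meet LPS, which makes a constitutive set a useful reference.

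The sequences around 10 start sites show the promoters on which the results turn, from the most open to one without a peak. Each run covers 60 bases before and 30 bases from a RefSeq start site, on the coding strand, 5′ to 3′, in build GRCm38.p6. Capitals mark matches to the motifs of SP1 (GGGCGG), ETS factors (CCGGAAG), YY1 (AAGATGG), NRF1 (GCGCATGC), the TATA box (TATAAA) or the E-box (CACGTG) on either strand, and runs of 8 or more pyrimidines. All of these genes lie on the plus strand. Where RefSeq gave several starts, the one nearest to the median peak summit is shown.
Rps19: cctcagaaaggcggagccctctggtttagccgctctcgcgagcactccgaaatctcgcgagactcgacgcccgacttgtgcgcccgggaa
Rpl14: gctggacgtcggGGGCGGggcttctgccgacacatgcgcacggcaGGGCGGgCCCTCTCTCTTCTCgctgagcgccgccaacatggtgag
Rps9: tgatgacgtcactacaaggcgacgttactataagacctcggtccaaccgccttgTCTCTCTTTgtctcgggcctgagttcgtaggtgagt
Rps27l: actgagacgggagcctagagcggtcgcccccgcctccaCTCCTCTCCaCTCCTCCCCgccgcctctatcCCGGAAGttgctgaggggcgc
Rpl35a: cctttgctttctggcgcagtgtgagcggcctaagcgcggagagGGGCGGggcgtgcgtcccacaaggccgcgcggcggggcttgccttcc
Rpl19: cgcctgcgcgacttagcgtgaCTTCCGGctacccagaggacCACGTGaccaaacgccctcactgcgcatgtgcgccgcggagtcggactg
Rpl6: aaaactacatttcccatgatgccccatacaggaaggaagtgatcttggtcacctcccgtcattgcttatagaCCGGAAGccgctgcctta
Rpl37a: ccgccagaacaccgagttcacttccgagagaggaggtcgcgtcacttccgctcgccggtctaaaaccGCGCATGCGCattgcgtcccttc
Rpl4: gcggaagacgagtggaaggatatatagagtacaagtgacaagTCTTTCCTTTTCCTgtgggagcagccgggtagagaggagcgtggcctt
Rps25: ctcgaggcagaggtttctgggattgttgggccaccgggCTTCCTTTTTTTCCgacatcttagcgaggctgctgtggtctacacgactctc

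The runs are chr7:24884532-24884621 for Rps19, chr9:120571457-120571546 for Rpl14, chr7:3703981-3704070 for Rps9, chr9:66946026-66946115 for Rps27l and chr16:33056393-33056482 for Rpl35a. The others are chr11:98026650-98026739 for Rpl19, chr5:121204441-121204530 for Rpl6, chr1:72711200-72711289 for Rpl37a, chr9:64173327-64173416 for Rpl4 and chr9:44407654-44407743 for Rps25. Rpl14 carries an SP1 match directly before its tract of 14 pyrimidines, while Rpl19 carries an ETS and an E-box match within the same stretch. Neither the most open promoter (Rps19) nor 2 of the least open ones (Rpl6 and Rpl37a) hold a pyrimidine run of 8 or more in these stretches.

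Over the longer window from 250 bases before to 50 bases from the GENCODE reference start, an ETS match was found in 21 of the 73 core promoters (28.8%) and in 11.2% of all 21827 protein-coding promoters. A C at the start site inside 5 or more pyrimidines was found in 11 core promoters (15.1%) against 5.43% of all, and a YY1 match in 10 (13.7%) against 6.31%. SP1 (37 core promoters, 50.7% against 45.4%), the E-box (8, 11% against 7.71%), NRF1 (4, 5.48% against 3.73%) and the TATA box (8, 11% against 12.6%) lay closer to the share of all promoters. Among the promoters called in all 12 libraries, 19.6% held an ETS match, 5.06% the tract, 7.85% a YY1 match and 66.4% an SP1 match. The E-box was found in 10.5% of them, NRF1 in 5.69% and the TATA box in 6.35%. Beside these shares the core promoters held SP1 less often and the TATA box more often. Start sites differ between annotations. RefSeq windows matched 54 core genes, and a match in any window of a gene was counted, unlike the single reference window above. An ETS match was found in 22 (40.7%, against 13.4% of all genes matched and 22.4% of those called in all 12 libraries). The pyrimidine tract was found in 13 (24.1%, against 5.87% and 6.27%). Among the core promoters called in all 12 libraries, the 21 with an ETS match had a median peak area percentile of 85.5 and the 50 without one 83.9. The median G and C content of the core windows was 55.7%, beside 56.0% for all promoters and 61.0% for the promoters called in all 12 libraries. By these windows the core promoters were not richer in G and C than promoters in general. A match is a stretch of letters and was not tested as a binding site.

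The ribosomal protein promoters were open throughout. A peak was called in all 12 libraries at 75 of the 88 genes (85.2%), against 9810 of all 21827 protein-coding genes (44.9%). Each library had a peak at 75 or 76 of the 88 genes, whereas 45.7 to 51.5% of all genes were called per library. Among the 73 core genes, 71 were called in all 12 libraries, 1 in some (Rpl4) and 1 in none (Rps25). The 6 cytosolic ribosomal proteins whose symbols the rule leaves out were also called in all 12. Of these, the stalk protein genes Rplp0, Rplp1 and Rplp2 had mean area percentiles of 96.2, 87.4 and 93.3, and Rpsa and Fau, whose product is fused to a ubiquitin-like protein, had 87.2 and 83.5.

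The paralogs and copies split. Rpl7l1, Rpl22l1, Rps27l and Rpl36al were called in all 12 libraries, with mean percentiles of 70.7, 87.2, 91.1 and 94.9. Rpl22l1 is the paralog of Rpl22, and Rps27l is a p53-responsive paralog of Rps27. Mgat2 starts near Rpl36al on the opposite strand. The other 10 had no peak within 1.0 kb in any list. They were Rpl3l, the muscle paralog of Rpl3, the testis-expressed Rpl10l and Rpl39l, Rps27rt, and the copies Rpl10-ps3, Rpl36-ps4, Rpl36a-ps1, Rpl9-ps1, Rpl9-ps6 and Rps12-ps3. Their nearest peak lay 2.6 kb (Rpl9-ps1) to 1111 kb (Rpl10l) away. Among 290 genes annotated as ribosomal protein pseudogenes, 2 were called in all 12 libraries (Rpl29-ps2 and Rpl21-ps1) and 280 in none. Near-identical copies can lose reads that map to several places, so an absent peak at a copy is uncertain.

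3 genes with a function in or around the ribosome stood outside this pattern. Rps25, a small subunit protein needed for initiation at some viral internal ribosome entry sites, had no peak within 1.0 kb in the lists used here, and its nearest peak lay 10.07 to 10.24 kb away in every library. Rps19bp1, which encodes a nucleolar binding partner of Rps19, had its nearest peak at 38.8 kb. Rpl4, a large subunit protein that reaches into the exit tunnel, was called in 8 libraries, 5 PBS and 3 LPS. It was absent from the first 3-month PBS, both 14-month LPS and the first 24-month LPS lists, which held 35573, 36735, 28618 and 35168 peaks. Where it was called, its percentile was 17.8 (PBS) and 19.3 and 15.1 (LPS) at 3 months, 12.9 and 17.4 (PBS) at 14 months, and 41.2 and 28.5 (PBS) and 36.7 (LPS) at 24 months, so that the 3 highest values were those of the 24-month libraries. These are not values of 1 peak: 7 of the 8 libraries had 2 peaks in the window, and in the second 3-month PBS and second 24-month PBS libraries (17.8 and 28.5) the peak of largest area had its summit at -452 and -462 bp, against -4 to +19 bp in the other 6. The signal cannot be assigned to Rpl4 alone, since Zwilch starts within 1.0 kb on the opposite strand. A peak missing from these lists does not show closed chromatin, and whether it fell under the caller's threshold or is missing from the lists for another reason was not tested. Eef2, the elongation factor that moves the ribosome along the mRNA, and Tsr1, a factor of small subunit assembly, also had no promoter peak in any of the lists used here.

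The lists held 28618 to 41532 peaks, and their read depth is unknown. The shortest list was that of the second 14-month LPS library. Of 10 microglial markers, 8 had a promoter peak in all 12 libraries, among them P2ry12, Tmem119 and Cx3cr1. Of the marker lists of other cells, neurons (6 genes), lymphocytes (5) and granulocytes (5) had no promoter peak in any library. Astrocyte markers were called at 0 to 2 of 6 genes per library, and oligodendrocyte and endothelial markers at 1 to 3 of 6 each.

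Peak area, the caller's significance summed along a peak, is not normalized between libraries and is therefore given as the percentile of a peak within its own list. Over the 75 genes called in all 12 libraries the mean percentile had a median of 84.9 (quartiles 74.0 and 91.3), against 82.7 over all 9810 promoters called in all 12. The ribosomal protein promoters were thus high in the list, as promoters called in every library were in general. Their median SD over the 12 libraries was 3.14 percentile points, against 3.55 for all promoters. The mean width was 672 bp at the median gene, beside 659 bp for all. The median summit lay 27.5 bp upstream of the reference start, the summit was within 150 bp of it at 68 genes, and 59 genes had exactly 1 peak in the window in every library.

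**Figure D1:**
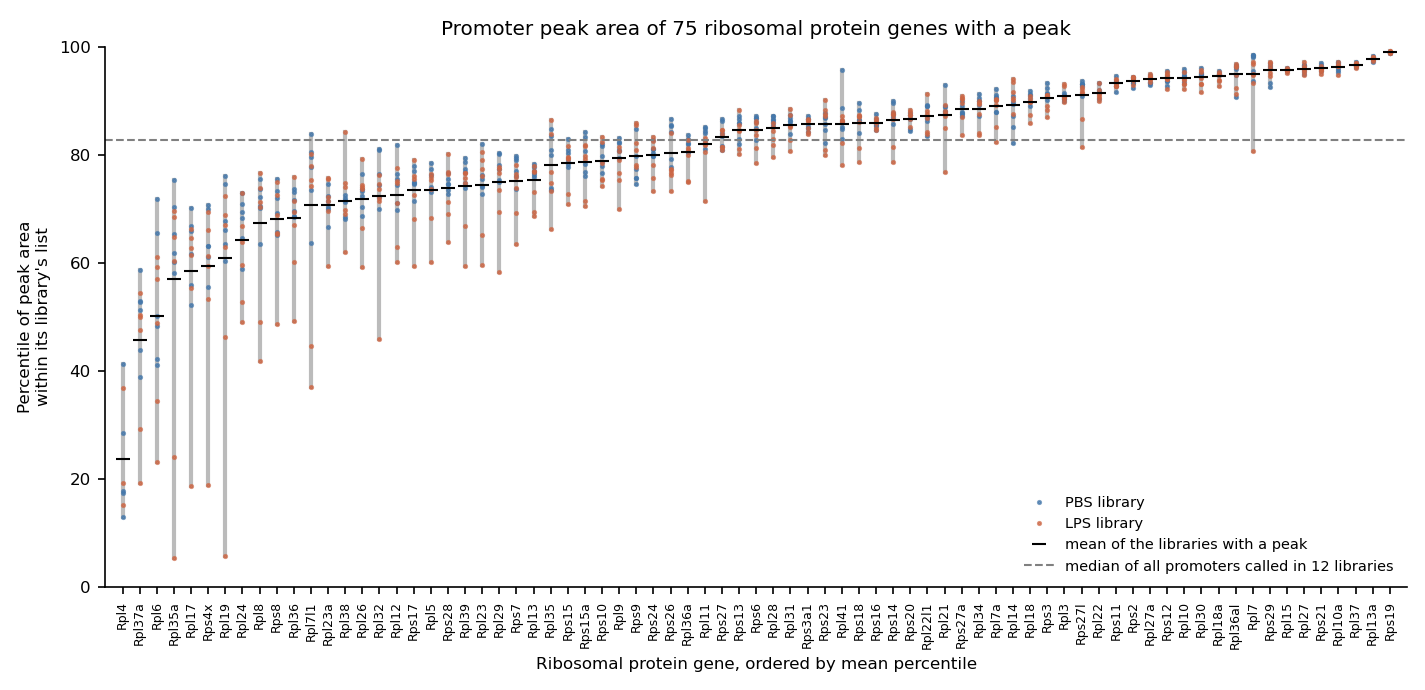
Percentile of promoter peak area within each library's list (vertical axis, 0 to 100) for 75 of the 76 ribosomal protein genes with a peak, ordered by their mean; points are libraries (PBS blue, LPS orange), grey bars their range, black ticks the mean and the dashed line the median of all promoters called in 12 libraries (82.7). Values run from 23.6 for Rpl4 to 99.0 for Rps19, and the libraries lie between 98.9 and 99.2 for Rps19 but between 19.1 and 58.7 for Rpl37a.

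Rps19, the small subunit gene most often mutated in Diamond-Blackfan anaemia, had the largest peak, at 98.9 to 99.2 in all 12 libraries. Rpl13a, which also takes part in translational silencing after interferon-γ, had a mean of 97.8 ± 0.32 (SD, n = 12). Rpl37 was at 96.7 ± 0.34 and Rpl10a at 96.4 ± 0.78. The means of Rpl37 and Rpl10a differed by less than 1 SD of either, so their order is not resolved.

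Rpl37a, which encodes a zinc-binding large subunit protein, had the lowest mean of the genes called in all 12 libraries, at 45.8 ± 11.5. It was the only one below the limit of 48.1 set at 1.5 interquartile ranges under the lower quartile. Its percentile was 43.8 and 51.3 (PBS) and 54.5 and 47.5 (LPS) at 3 months, 38.8 and 52.7 (PBS) and 29.2 and 19.1 (LPS) at 14 months, and 58.7 and 52.9 (PBS) and 50.3 and 50.1 (LPS) at 24 months. Both 14-month LPS libraries were the lowest of the 12. Rpl6 (50.2 ± 13.8), Rpl35a (57 ± 20.8), Rpl17 (58.5 ± 14) and the X-linked Rps4x (59.3 ± 13.9) came next, and these means differed by less than their SDs. The largest SDs over the libraries were those of Rpl35a (20.8), Rpl19 (19.1) and Rpl7l1 (14.9), and each of the 3 had its lowest value in the second 14-month LPS library, at 5.29, 5.64 and 37.1.

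Several members chosen by role are given as values. Rps6, the classic substrate of the S6 kinases, had a mean percentile of 84.6 and Rps3, which binds mRNA at the entry channel, 90.6. Rpl5 and Rpl11, which with the 5S RNA bind Mdm2, the ubiquitin ligase of p53, were at 73.6 and 82.0. Rpl10, among the last proteins to join the large subunit, was at 94.2, Rpl22 at 91.5 and Rps27a, whose product is fused to ubiquitin, at 88.5.

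Rpl7 had the widest peaks, 1654 ± 349 bp over the 12 libraries, followed by Rpl10a (1237 ± 295 bp) and Rps29 (1137 ± 299 bp). Rpl23a (450 ± 58.2 bp), Rpl37a (452 ± 153 bp) and Rpl38 (456 ± 195 bp) had the narrowest among the genes called in all 12 libraries. The Rpl38 peak was 1011 bp wide in the second 24-month LPS library and 309 to 535 bp wide in the others. Rpl4 averaged 375 bp in its 8 libraries. Of the 73 core genes, 13 had an annotated start of another gene within 1.0 kb on the opposite strand. The 11 of them called in all 12 libraries had a median percentile of 85.8 and the other 60 one of 84.5.

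The median percentile of the 75 promoters was also read by group, beside that of all promoters. At 3 months it was 85.4 ± 1.27 in PBS and 86.1 ± 0.22 in LPS microglia (SD, n = 2 libraries each), at 14 months 84.3 ± 1.95 and 80.3 ± 2.18, and at 24 months 86.1 ± 0.07 and 85.0 ± 0.03. The medians of all promoters were 83.4 and 84.2, 83.7 and 77.9, and 85.8 and 83.3 in the same order. The 14-month LPS group was the lowest on both scales, and the ribosomal protein median lay above that of all promoters in each of the 12 libraries. Median widths were 632 ± 34.6 and 709 ± 20.5 bp at 3 months (PBS and LPS), 633 ± 81.3 and 556 ± 59.4 bp at 14 months, and 812 ± 34.6 and 717 ± 75 bp at 24 months. The corresponding widths over all promoters were 614 and 662, 627 and 543, and 782 and 684 bp. Peaks were widest in 24-month PBS libraries in both sets.

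**Figure D2:**
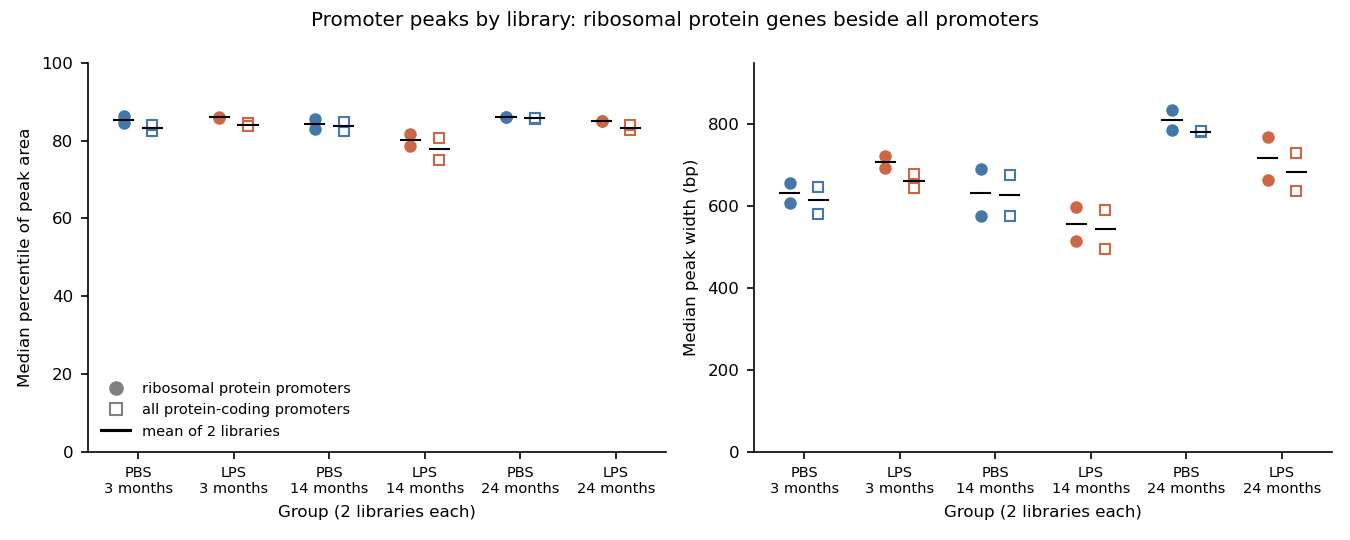
Median percentile of peak area (left) and median peak width in bp (right) per library for the 75 ribosomal protein promoters called in all 12 libraries (filled circles) and all 9810 such promoters (open squares), by group, with black lines at the mean of 2 libraries. In both panels the 14-month LPS group is lowest for the filled and the open symbols (80.3 and 77.9 by percentile).

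The first comparison asked whether the systemic LPS challenge changed these promoters. The log2 area of the 9810 promoters was quantile-normalized and fitted with limma, and p-values were adjusted over all of them (Benjamini-Hochberg, threshold 0.05). Over the 3 ages, 6 of the 75 promoters passed (8.00%), beside 10.7% of all promoters, and 4 were higher and 2 lower in LPS. The median difference of the 75 was +0.02 and that of all promoters +0.00 on the log2 scale. Quantile normalization gives every library the same distribution, so a shift common to all promoters cannot show there. As within-list percentiles the median differences were -2.09 points for the 75 and -1.91 for all. On the scale of within-list percentiles the split turned: 3 ribosomal protein promoters passed, all lower (Rpl35a, Rps27l and Rps14), beside 1254 of all, of which 231 were higher, whereas in the log2 fit 577 of the 1046 called were higher.

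Rpl14, a large subunit protein, rose most. Its normalized log2 area was 10.55 and 10.58 (PBS) against 10.98 and 11.04 (LPS) at 3 months, 10.41 and 10.70 against 10.94 and 10.87 at 14 months, and 10.76 and 10.64 against 10.82 and 10.77 at 24 months. In the first 14-month PBS library (10.41) the window held 2 peaks, and the one of largest area was 520 bp wide. Every other library had 1 peak, 820 to 978 bp wide. With the first 14-month PBS library left out, the difference over the ages was +0.25. All 6 LPS values lay above all 6 PBS values on this scale, by a narrow margin at 24 months. On the percentile scale they overlapped, at 82.2 to 90.9 in PBS and 87.6 to 94.0 in LPS libraries. How many of all promoters separate in this way was not counted. The difference was +0.30 ± 0.05 (SE; limma adjusted p = 0.00672) and passed in 19 of 20 alternative settings, the exception being the percentile scale, where it was +3.77 percentile points. By age it was +0.44 at 3 months (adjusted p = 0.0377), +0.35 at 14 months (0.0497) and +0.10 at 24 months (0.723), all from limma, and these differences between ages were not past the threshold. The calls at 3 and 14 months were lost in 10 and 16 of the 20 alternative settings, 8 and 10 of which leave out 1 library.

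Rps9, which sits near the mRNA entry of the small subunit, differed by +0.29 ± 0.07 (limma adjusted p = 0.028). Its normalized log2 area ran from 9.97 to 10.37 (median 10.11) in PBS and from 10.32 to 10.50 (median 10.42) in LPS libraries, so the groups overlapped. Rps20 differed by +0.13 ± 0.03 (limma adjusted p = 0.0346), with 10.48 to 10.56 in PBS and 10.57 to 10.77 in LPS, and Rps27a by +0.12 ± 0.03 (0.0393), with 10.59 to 10.68 against 10.70 to 10.85. The normalized values of these last 2 did not overlap, but the margins were under 0.02. Their percentiles did overlap, at 84.5 to 87.7 (PBS) against 85.2 to 88.2 (LPS) for Rps20. For Rps27a they were 87.2 to 90.1 against 83.7 to 90.9. The share of all promoters without overlap was not counted. The calls of Rps9, Rps20 and Rps27a were lost in 9, 12 and 14 of the 20 alternative settings.

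Rpl35a, a large subunit protein whose gene is mutated in some families with Diamond-Blackfan anaemia, fell most, and it did so at 14 months. Its percentile was 61.8 and 65.4 (PBS) and 68.5 and 60.3 (LPS) at 3 months, 58.1 and 60.2 (PBS) and 24.0 and 5.29 (LPS) at 14 months, and 70.3 and 75.4 (PBS) and 64.8 and 69.6 (LPS) at 24 months. Both 14-month LPS libraries lay far under the other 10, which did not separate by treatment. The log2 difference in area was -0.90 ± 0.12 at 14 months (limma adjusted p = 0.0039) and -0.33 ± 0.07 over the ages (0.0144), and both passed in all 20 alternative settings. At 3 and 24 months it was -0.07 (limma adjusted p = 0.83) and -0.03 (0.956), and the area effects at 14 and 3 months did not differ past the threshold (-0.83 ± 0.17, limma adjusted p = 0.193). The peak cannot be assigned to Rpl35a alone, because Iqcg starts within 1.0 kb on the opposite strand.

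Rps27l, the p53-responsive paralog, had a lower area in LPS over the ages (-0.12 ± 0.03, limma adjusted p = 0.0405) and at 14 months (-0.23 ± 0.06, 0.0411). At 14 months its normalized log2 area was 10.86 and 10.91 in PBS and 10.68 and 10.62 in LPS. The calls were lost in 12 and 13 of the 20 alternative settings. Of the promoters of large change that did not pass over the ages, Rpl7 differed by -0.32 (limma adjusted p = 0.132), Rpl19 by -0.28 (0.152) and Rpl38, known for selective translation of Hox mRNAs, by +0.24 (0.109). The Rpl7 peak was either 1248 to 1390 bp or 1834 to 2164 bp wide. Its window held 2 peaks in the first 3-month LPS, first 14-month PBS and second 24-month LPS libraries, which were among the narrower. In the second 24-month LPS library Rpl38 had 1 peak in the window, 1011 bp wide (normalized log2 area 10.43). Every other library had 2, and the one of largest area was 309 to 535 bp wide (9.68 to 10.04).

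**Figure D3:**
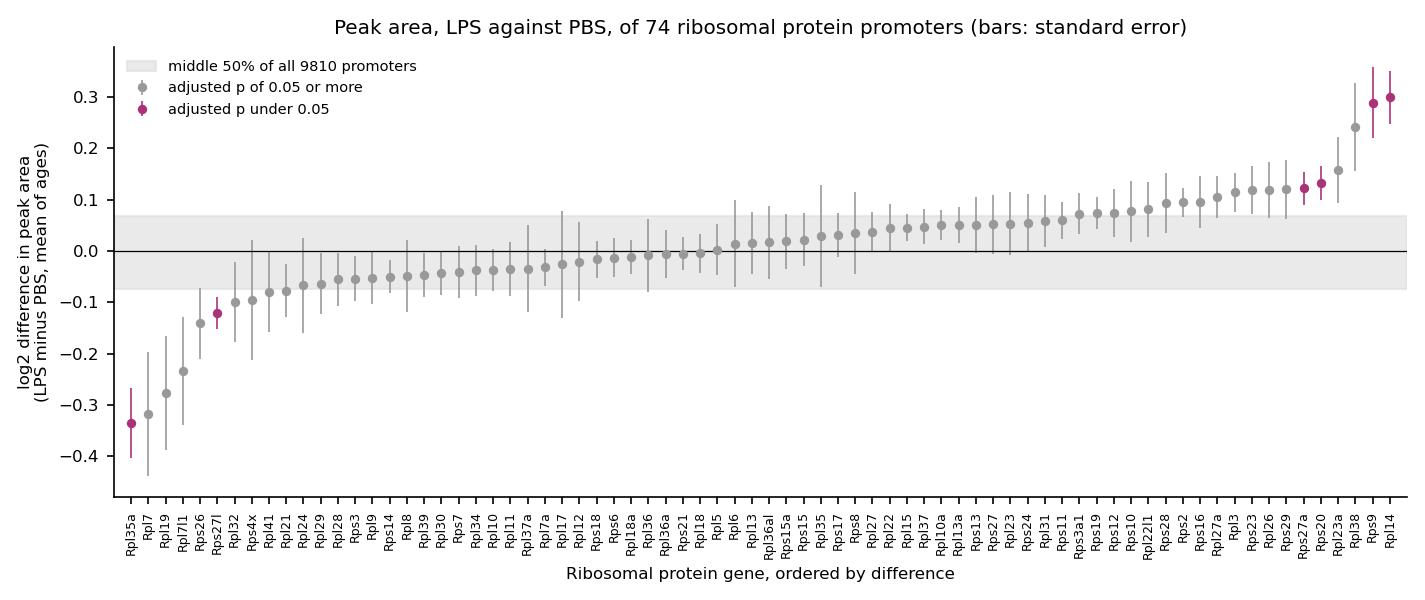
log2 difference in quantile-normalized peak area, LPS minus PBS averaged over the 3 ages (vertical axis), with its standard error, for 74 of the 75 ribosomal protein promoters tested, ordered by difference; the grey band spans the quartiles of all 9810 promoters and purple marks an adjusted p under 0.05. Values run from -0.33 for Rpl35a to +0.30 for Rpl14, and most lie in or near the band.

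Within ages, LPS changed the area of 1 of the 75 promoters at 3 months (Rpl14), beside 2.1% of all promoters, of 4 at 14 months (Rpl14 higher, Rpl35a, Rpl19 and Rps27l lower), beside 6.12%, and of 0 at 24 months, beside 0.53%, where 4 had an unadjusted limma p under the threshold. Rpl19, a large subunit protein that bridges to the small subunit, differed by -0.83 ± 0.19 at 14 months (limma adjusted p = 0.0371). Its percentile there was 66.2 and 67.8 in PBS and 46.2 and 5.64 in LPS. The summit of its peak lay at -258 and +20 bp in PBS and at +21 and -260 bp in LPS, so the libraries did not share 1 summit position, and without the second 14-month LPS library the difference was -0.44 and the call was lost (limma adjusted p = 0.128). On the percentile scale 29 of the 75 promoters were lower at 14 months and 0 higher, beside 27.9% of all promoters, of which 151 of 2738 were higher. The list of the second 14-month LPS library, at 28618 peaks, was the shortest, and its part in the differences on the percentile scale was not tested. The area differences between the LPS effects were past the threshold at 0 of the 75 promoters for 24 against 3 months (0.0714% of all; 3 with an unadjusted limma p under the threshold) and at 0 for 14 against 3 months (0.102% of all; 5 unadjusted).

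The second comparison asked how the promoters changed with age. Between 24 and 3 months 0 of the 75 promoters differed in area past the limma threshold over the treatments (0.183% of all promoters passed), in PBS (0.459%) or in LPS microglia (0%). At an unadjusted limma p under the threshold there were 7, 11 and 1. The largest differences, as values, were +0.35 ± 0.10 for Rpl6, +0.26 ± 0.14 for Rpl19 and +0.20 ± 0.10 for Rpl41 upward, and -0.16 ± 0.06 for Rpl31, -0.15 ± 0.07 for Rps28 and -0.14 ± 0.05 for Rpl27 downward. The Rpl41 value does not rest on 1 peak: in the second 24-month PBS library a peak with its summit at +1456 bp stood for the promoter (95.8 by percentile, 1111 bp wide), whereas in the other 11 the summit lay at +102 to +146 bp and the percentile between 78.1 and 88.8. Between 14 and 3 months Rpl35a was lower over the treatments (-0.62, limma adjusted p = 0.0356, beside 0.102% of all promoters) and in LPS microglia (-1.03, limma adjusted p = 0.00567, beside 0.377%), which rests on the same 14-month LPS libraries described above. The call over the treatments was lost in 12 of 20 alternative settings, 9 of which leave out 1 library (limma adjusted p up to 0.131), and that in LPS microglia in 3. In PBS microglia 0 of the 75 passed, beside 0.0306% of all, and 0 had an unadjusted limma p under the threshold.

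Width was fitted in the same way. For LPS against PBS, 1 of the 75 promoters passed over the ages (Rpl35a, -0.55 ± 0.07 on the log2 scale, limma adjusted p = 0.0142), beside 0.571% of all promoters, and 1 at 14 months (Rpl35a, -1.64 ± 0.13, 0.00131), beside 0.785%. At 3 months 0 passed (0.214% of all; 5 with an unadjusted limma p under the threshold), and at 24 months 0 (0.469% of all; 0 unadjusted). The Rpl35a peak was 194 and 191 bp wide in the 14-month LPS libraries and 625 to 749 bp wide in the other 10. Each library had exactly 1 peak there, with its summit 4 to 11 bp downstream of the reference start. The peak was thus narrower at 14 months with its summit in place. The effect differed from the effect at 3 months (-1.59 ± 0.18, limma adjusted p = 0.0162), beside 0.204% of all promoters for that difference, and it made Rpl35a narrower at 14 than at 3 months in LPS microglia (-1.63, 0.00155; 0.52% of all) and over the treatments (-0.83, 0.0176; 0.0408% of all). In PBS microglia 0 of the 75 changed width between 14 and 3 months (0.0306% of all; 1 unadjusted in limma).

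Rpl6, a large subunit protein, was the member whose width passed between 24 and 3 months, in PBS microglia. It was 244 and 260 bp wide in PBS and 789 and 439 bp in LPS libraries at 3 months, 239 and 242 bp (PBS) and 234 and 228 bp (LPS) at 14 months, and 799 and 807 bp (PBS) and 772 and 789 bp (LPS) at 24 months. All 4 libraries of 24 months had a wide peak, and 6 of the other 8 a narrow one. Between 24 and 3 months in PBS microglia the difference was +1.33 ± 0.22 (log2 width, limma adjusted p = 0.0432), beside 0.479% of all promoters, and the call was lost in 10 of 20 alternative settings. Median widths of all promoters were also larger at 24 months (782 against 614 bp in PBS). Over the treatments 0 of the 75 passed for 24 against 3 months (0.112% of all; 3 unadjusted in limma), in LPS microglia 0 (0.0408% of all; 1 unadjusted), and the LPS effects on width at 24 and 3 months differed at 0 (0.0408% of all; 5 unadjusted).

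**Figure D4:**
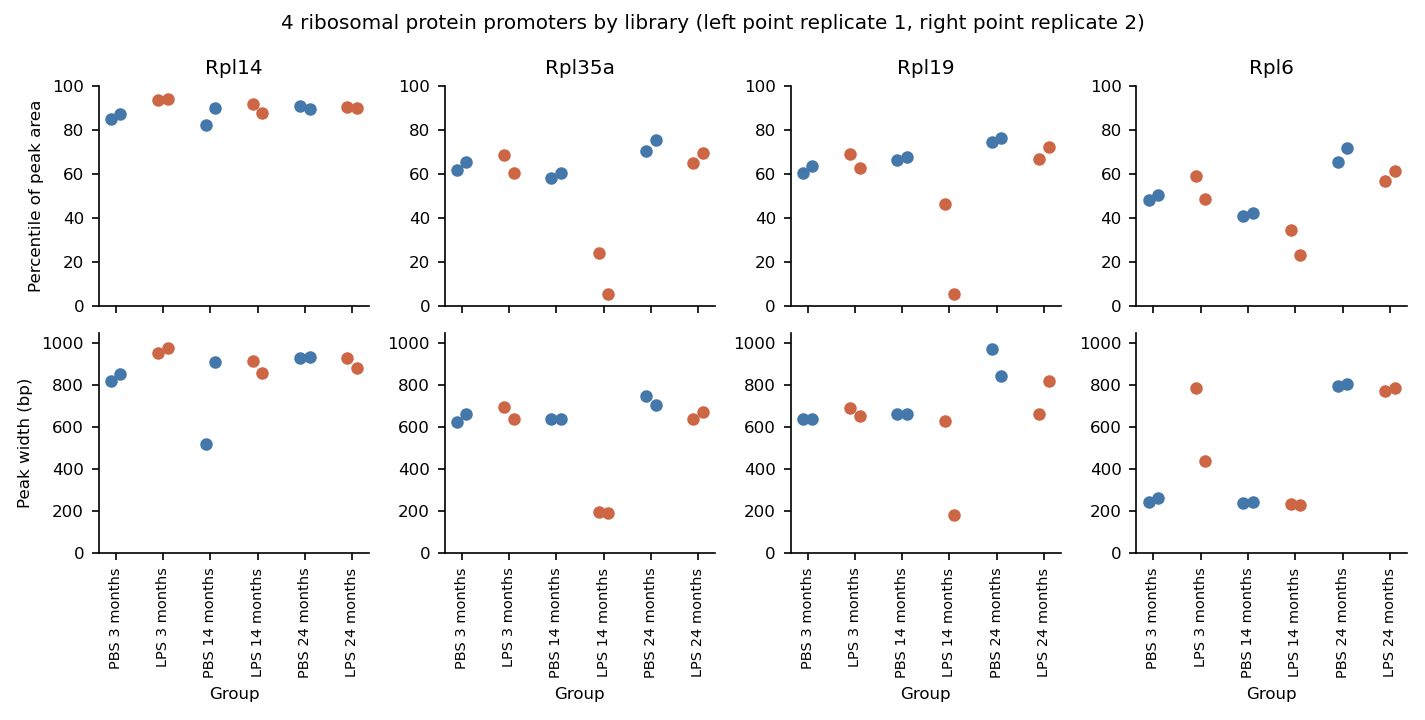
Percentile of peak area (top) and peak width in bp (bottom) of Rpl14, Rpl35a, Rpl19 and Rpl6 in each library, by group (PBS blue, LPS orange; left point replicate 1, right point replicate 2). The Rpl35a peak is 194 and 191 bp wide in the 14-month LPS libraries against 625 to 749 bp elsewhere, and the Rpl6 peak is 772 to 807 bp wide at 24 months.

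Other constitutive gene sets were read the same way. Of 40 proteasome subunit genes 36 were called in all 12 libraries (median percentile 81.9), of 78 mitochondrial ribosomal protein genes 70 (75.5), of 21 translation factors and partners 20 (88.7) and of 20 ribosome biogenesis genes 19 (79.7). LPS changed the area of 2 of the 36 proteasome promoters over the ages (Psmd3 and Psmb7, in opposite directions), of 3 of the 70 mitochondrial ones (Mrpl52, Mrps6 and Mrpl33, all higher), of 1 of the 20 translation genes (Eef1a1, higher), of 2 of the 19 biogenesis genes (Pes1 and Ncl, in opposite directions) and of 0 of the 6 remaining cytosolic ribosomal protein genes, beside 10.7% of all promoters. Between 24 and 3 months 0 promoters of these lists passed in area or in width by limma over the treatments, beside 0.183% and 0.112% of all promoters.

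Presence of a peak was compared between the treatments as well. The 264 promoters called in 5 to 7 libraries were tested with Fisher's exact test, 0 passed the adjusted threshold and 33 had an unadjusted p under it. With a window of 0.5 kb 11 passed, and leaving out any 1 library 11 to 17 passed. None of the 88 genes was called in 5 to 7 libraries, and none was among the promoters tested in these settings. Promoters called in fewer or more libraries cannot reach an unadjusted p under the threshold in this test. With no limit on the number of libraries 0 of the 88 had one, an outcome fixed in advance that says nothing about Rpl4 or the others.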

How the data were processed

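ATAC-seq was performed on microglia in 12 libraries, 2 for each of 6 groups of age and treatment taken from the titles. The authors trimmed reads with Cutadapt 2.8, aligned them to mm10 with Bowtie2 2.4.1, removed duplicates with SAMtools, filtered mitochondrial and blacklisted reads and called peaks per library with Genrich. No source read here gives the versions of SAMtools and Genrich or says whether read ends were shifted for Tn5. The deposited peak area is a score (minimum 200) summed by the authors' caller without normalization between libraries, and the deposited summit significance is −log10 p, unadjusted. The lists hold no counts, so depth is unknown, no counting interval can be given and the study's count test could not be run.

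Peaks on other contigs (29 to 40 per list) were left out, and all others fitted the chromosome lengths of GRCm38. Peaks were assigned to the start sites of protein-coding transcripts of GENCODE M21. The log2 area and log2 width of the 9810 promoters called in all 12 libraries were quantile-normalized and fitted with limma 3.58.1 (R 4.3.3, trend) in 1 model of 6 group means, with Benjamini-Hochberg adjustment over all of them. This requirement leaves out promoters that lose their peak. Scripts were tested on simulated data. The p-values rest on 2 pools a group. Replicate numbers are shared between groups without a stated pairing.

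The members and the lists were chosen with earlier results of these data known, so no list is given a p-value. Named were members not called in all 12 libraries, those past the threshold, the 5 highest and 5 lowest percentiles, the 3 widest and 3 narrowest, the 3 largest changes each way, the 3 largest SDs, and genes chosen by role. Some items that this rule names are not reported here. The genes of the sequence lines were chosen from these after their values were seen, the RefSeq windows (matched for 63 members) were added after the GENCODE ones, and the distance of 150 bp was chosen after the offsets were seen. Motifs were counted on both strands, each by itself, whether or not it overlapped another. The alternatives were other windows, starts, peak choices, thresholds, list lengths, scales and filters, a replicate block and leaving out libraries.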

Additional observations from a re-analysis of the deposited data

Results flagged for a closer look

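The LPS effect on the width of the Rpl35a promoter peak differed between ages. The test of the difference itself, 14 minus 3 months, gave -1.59 on the log2 scale (SE 0.18, limma adjusted p = 0.0162). At 3 months the widths were 625 and 661 bp in PBS and 698 and 637 bp in LPS libraries, and at 14 months 641 and 638 bp in PBS and 194 and 191 bp in LPS libraries. Both 14-month LPS libraries showed the narrow peak, 2 of 2. The call was lost in 7 of 20 alternative settings, 6 of which leave out 1 library (adjusted p over the alternatives 0.00819 to 0.0978). The same peak at 24 months was 638 and 672 bp wide in LPS libraries. With equal list lengths the difference was -1.52 (limma adjusted p = 0.02).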

How the results depend on the processing

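Of 552 values of the 28 summary results under alternative settings, 452 stayed within the limits set (1.5 times a count, or 1 SD of the libraries). These results are counts, percentiles and widths without a sign, so a reversal of direction could not show in them. On the percentile scale the split of the members called for LPS over the ages did turn, as given above. The mean over libraries of the median percentile was 84.5 and became 80.4 without the 25% of peaks with the lowest summit significance in each list and 80.1 with equal list lengths, as both shorten the lists. On the percentile or bp scale, the members called for LPS in area were 3 over the ages (6 in the fit reported), 0 at 3 months (1) and 29 at 14 months (4), those for 14 against 3 months in LPS were 35 (1), beside 25.1% of all promoters (6 of 2466 higher), and in width those for 24 against 3 months were 2 over the treatments (0) and 3 in PBS (1). With the peak nearest the start, 2 were called for LPS in area at 14 months, beside 4.57% of all promoters. With promoters called in at least 9 libraries, 0 were called in area for 14 against 3 months over the treatments, beside 0.105% of all. Leaving out both the LPS_14m replicate 2 and the LPS_24m replicate 2 library, where the lone libraries are assumed to vary like the other groups, area calls were 3 for LPS over the ages, 1 at 14 months, 0 for 14 against 3 months in LPS and 0 over the treatments, and width calls were 0 for 24 against 3 months in PBS, 0 for 14 against 3 months over the treatments and 0 for the difference in LPS effect between 14 and 3 months. The number of all promoters called in area changed under these settings too, so the members' counts by themselves show nothing particular to them. The causes were not tested.

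Leaving out single libraries, the genes called in every library stayed at 75, the median percentile ranged from 84.4 to 85.0 and the median width from 662 to 691 bp. Area calls ranged from 2 to 6 for LPS over the ages, from 0 to 1 at 3 months, from 1 to 4 at 14 months and from 0 to 1 at 24 months. They ranged from 0 to 1 for 24 against 3 months over the treatments and in PBS, from 0 to 2 for 14 against 3 months over the treatments and in LPS, and from 0 to 1 for the LPS effect at 14 minus 3 months. Width calls ranged from 0 to 2 for LPS over the ages, 0 to 1 at 3 months and 1 to 3 at 14 months, from 0 to 1 for 24 against 3 months over the treatments and in PBS, from 0 to 2 for 14 against 3 months over the treatments, from 1 to 3 in LPS, and from 0 to 2 for the LPS effect at 14 minus 3 months. The lowest number of members called in area for LPS over the ages came without either 3-month PBS or either 3-month LPS library. It also came without the second 14-month PBS or the second 14-month LPS library. With any 1 of the 3-month PBS or LPS libraries left out, fewer of all promoters were called as well. Rpl35a in area (LPS over the ages and at 14 months) and in width (LPS at 14 months, and 14 against 3 months in LPS) passed under all 20 alternatives.

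Whether the replicate numbers pair the samples cannot be decided with 2 libraries a group. Across promoters, deviations of same-numbered LPS and PBS libraries of one age correlated at -0.20 to 0.00 (3 correlations). Those of one treatment at different ages correlated at -0.23 to 0.29 (6 correlations). With the replicate block, area calls were 0 for LPS at 3 months and 0 for 14 against 3 months over the treatments, and width calls 0 for 24 against 3 months in PBS, in place of 1 each. Over all promoters 1.55% and 0.051% passed in these area comparisons, in the same order. Depth is unknown, so a peak under the threshold cannot be told from an absent one.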
